A study of Mus musculus with 4 samples.

Results

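Keratinocytes (KCs), the main cells of the epidermis, were examined for the RNA of 5 genes of the sodium-potassium pump (Na,K-ATPase) and its regulators: Atp1b1, Atp1b2, Atp1b3, Fxyd3 and Fxyd5. They were picked by name out of 25814 genes listed, and 4 of the 5 had reads in every library. The set was chosen by function, and it was proposed because Atp1b1 had been noted as lower in KCs without NFAT5, so the difference of Atp1b1 between the genotypes is a description and was not tested. The KCs came from adult 129/sv mouse tails, with 2 libraries labelled Wildtype (WT) and 2 labelled Nfat5-Knockout (Nfat5-/-), and were grown untreated in serum-free medium with 0.06 mM calcium. Per the methods of the study, WT animals were littermates, and tails were shipped cold before the cells were isolated. The methods also describe raised blood sodium and kidney changes in the animals. The study describes the transcriptomes as those of sibling mice, which reads as a separate animal for each library, but the labels do not state it. The Y-linked reads given below differ between the WT libraries, so these 2 were not of the same animal. If the knockout libraries were not separate animals or cultures, the p-values rest in part on a technical spread.

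The Na,K-ATPase moves sodium out of the cell and potassium in, at the cost of ATP. Its alpha subunit is the catalytic part. The beta subunit is a glycoprotein that the alpha subunit needs in order to fold and to reach the plasma membrane, and on the outside of the cell it also takes part in adhesion between neighbouring epithelial cells. Small membrane proteins with a shared FXYD motif bind the complex and tune its affinity for ions and its rate. NFAT5 is a transcription factor that becomes active under hypertonic stress.

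The libraries held between 16219445 and 23494436 gene reads. Nfat5 itself had 408 and 929 reads in WT and 715 and 770 reads in the libraries labelled Nfat5-/- (edgeR log2 fold change 0.09, SE 0.26, adjusted p 0.913), so its total reads did not separate the labels, and every direction below rests on the labels. These are totals per gene, which do not show a deletion of part of it. The libraries labelled Nfat5-/- are called knockout libraries here. The basal KC markers Krt5, Krt14, Trp63, Itga6, Itgb4 and Col17a1 summed to between 11064 and 12870.4 RPKM (reads scaled by exon length and by the mapped reads of the library). Eif2s3y, on the Y chromosome, had 638 reads in WT replicate 1 and 0 in each of the other libraries. Ddx3y, Kdm5d and Uty, also Y-linked, had 355, 209 and 198 reads in WT replicate 1 and at most 4 in another library. WT replicate 1 thus held male cells, and the other libraries held few or none. The other values are therefore also given without WT replicate 1 where that matters.

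The clearest difference among the 5 genes was in Atp1b1, which encodes the beta 1 subunit, the usual beta partner in epithelia. Atp1b1 (ENSMUSG00000026576) lies on chromosome 1, positions 164437109 to 164458355 on the minus strand of GRCm38, with 8 exons in the deposited tables. In WT replicates 1 and 2 its level was 27.1 and 30.2 RPKM, against 14.1 and 12.3 RPKM in the knockout replicates 1 and 2. Both WT libraries were high and both knockout libraries low, with no overlap. The values rest on 1242, 1836, 931 and 650 reads. The mean level was 28.7 ± 2.15 RPKM in WT and 13.2 ± 1.26 RPKM in knockout libraries (SD, n = 2 each), 2.17-fold lower in the knockout. The log2 fold change in CPM (reads scaled to the library total) was -1.10 (SE 0.11) in the edgeR fit of all genes, and from -1.17 to -1.02 with each library left out in turn. Without WT replicate 1 it was -1.16. Of all 12614 tested genes, 148 had a log2 fold change at or below this value, and among the 4830 with a mean of at least 10 RPKM there were 11, Atp1b1 included in both counts.

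**Figure D1:**
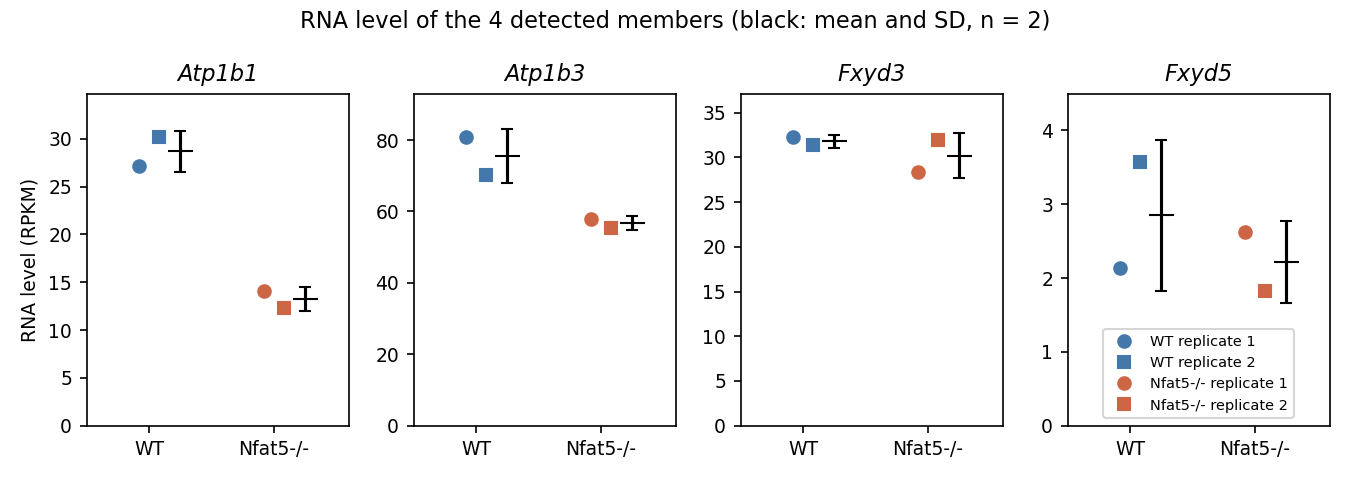
RNA level in RPKM of the 4 members with reads, 1 panel per gene, 1 point per library, with the mean and SD (n = 2) of each labelled genotype in black beside the points. The knockout points of Atp1b1 (14.1 and 12.3 RPKM) and Atp1b3 (58.0 and 55.3 RPKM) lie below the WT points, while the points of Fxyd3 and Fxyd5 overlap between the groups.

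The reads of Atp1b1 were nearly all exonic, with intron reads at 0.386% of the total over the libraries. Of its exon reads, 86.0% were placed at a single site, and on these uniquely placed reads alone the log2 fold change was -1.07 (SE 0.12). The share of exon reads that crossed an exon-exon junction was between 15.6% and 17.9% in each library. The 3' end of Atp1b1 overlaps 617 bases of Nme7 on the opposite strand, which had between 362 and 546 reads. Strand is not stated to have been used in counting, so reads in that overlap cannot be assigned to one of these genes.

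RefSeq start sites gave a promoter window for 4 of the 5 genes (all but Atp1b2) on GRCm38.p6, taken here as the 250 bases before each start. They were searched on both strands for TGGAAA, the core of the site that NFAT5 binds. The 250-base windows of Atp1b1, Fxyd3 and Fxyd5 held no match. Atp1b3 has 2 listed starts. The window of the outer start held no match, and the window of the inner start, which lies inside the gene in intronic sequence of GENCODE M21, held 1 match on the opposite strand, beginning 72 bases before the start. Of all 32851 windows of this length, 18.6% held the motif. The windows of both beta subunit genes were rich in G and C, at 70.4% for Atp1b1 and 73.6% and 76.8% for Atp1b3, against 55.2% for Fxyd3, 55.6% for Fxyd5 and a median of 52.4% over all windows. The sequences of Atp1b1, the gene with the largest difference, and of the inner start of Atp1b3, the only member window with a match, are shown 5' to 3' on the strand of the gene, with the match in capitals. They lie at chr1:164458356-164458605 and chr9:96363716-96363965, both on the minus strand.
Atp1b1: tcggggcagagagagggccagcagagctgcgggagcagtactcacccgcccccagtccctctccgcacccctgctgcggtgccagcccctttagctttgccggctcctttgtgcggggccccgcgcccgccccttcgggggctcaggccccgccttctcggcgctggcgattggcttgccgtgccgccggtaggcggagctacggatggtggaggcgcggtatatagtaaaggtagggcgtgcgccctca
Atp1b3, inner start: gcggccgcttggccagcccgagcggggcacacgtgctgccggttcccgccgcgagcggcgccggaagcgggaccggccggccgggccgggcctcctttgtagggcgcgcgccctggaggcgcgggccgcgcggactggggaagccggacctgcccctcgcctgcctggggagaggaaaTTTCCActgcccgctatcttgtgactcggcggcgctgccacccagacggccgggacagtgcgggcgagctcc

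Atp1b3 encodes the beta 3 subunit, which is found in many cell types. It lies on chromosome 9, positions 96332655 to 96364442, also on the minus strand, and was the most abundant beta gene in every library. It measured 80.9 and 70.1 RPKM in WT replicates 1 and 2 and 58.0 and 55.3 RPKM in knockout replicates 1 and 2, on 2705, 3130, 2808 and 2127 reads. The groups did not overlap, but the difference was small. Mean levels were 75.5 ± 7.61 RPKM in WT and 56.7 ± 1.91 RPKM in knockout libraries (SD, n = 2 each). On the log2 scale the fold change was -0.40 (SE 0.11), with a 95% interval from -0.66 to -0.14, and did not pass the edgeR threshold (adjusted p 0.164). It passed only when genes were tested without a filter on low counts (edgeR adjusted p 0.0328), where 1137 of 18043 genes passed. Over the other alternatives with all 4 libraries, the adjusted p-values lay between 0.0939 (DESeq2) and 0.202 (edgeR with a replicate block). Without WT replicate 1, the higher WT library, the log2 fold change was -0.28 (edgeR adjusted p 0.484). All exon reads of Atp1b3 were uniquely placed.

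Atp1b2 encodes the beta 2 subunit, an adhesion molecule of glia and a pump subunit of nerve and muscle. It lies on chromosome 11, positions 69599736 to 69605942, and had 0 reads in each of the 4 libraries. The limit that a count of 0 allows, 3 reads, corresponds to between 0.0431 and 0.0624 RPKM, and covers counting error only. A level of Atp1b2 below this limit was not detectable at this depth, and no comparison of the genotypes is possible for it.

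Set beside each other per exon length, the beta genes made up a different mix in the 2 groups. Atp1b1 took 25.1% and 30.1% of the beta subunit RPKM in WT replicates 1 and 2, and 19.5% and 18.2% in knockout replicates 1 and 2, with Atp1b3 taking the rest. The mean share of Atp1b1 was 27.6% ± 3.51 in WT and 18.9% ± 0.945 in knockout libraries (SD, n = 2 each). Atp1b3 RNA thus stood at 2.98 and 2.32 times the Atp1b1 level in WT and at 4.12 and 4.49 times in knockout libraries. These shares hold the difference by which Atp1b1 was noticed and are a description. A permutation test of 2 against 2 libraries cannot go below p = 0.33 and was not run.

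The summed level of the beta genes was 108 and 100.3 RPKM in WT replicates 1 and 2, and 72.1 and 67.6 RPKM in knockout replicates 1 and 2. Both knockout libraries were below both WT libraries. The sum carries within it the differences of Atp1b1 (means 28.7 and 13.2 RPKM in WT and knockout) and of Atp1b3 (75.5 and 56.7 RPKM). The difference of Atp1b3 did not pass the edgeR threshold.

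**Figure D2:**
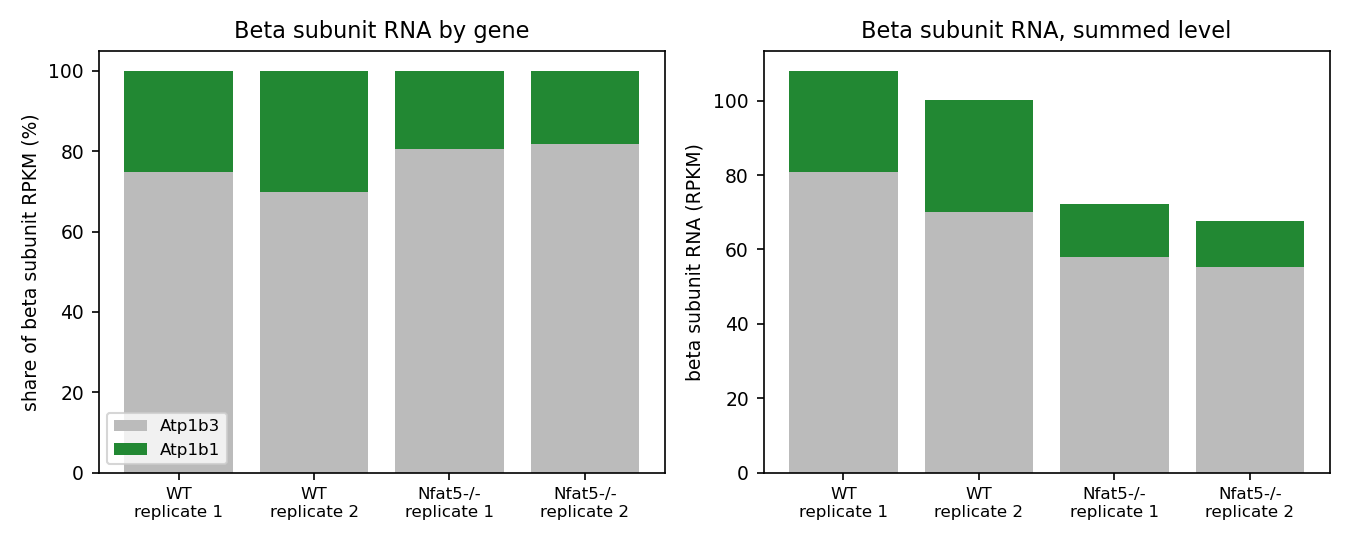
Beta subunit RNA in each of the 4 libraries, as a share in percent of the summed beta RPKM (left) and as a summed level in RPKM (right), with Atp1b3 in grey and Atp1b1 in green and Atp1b2 at 0. The green part is smaller in both knockout libraries (19.5% and 18.2% of beta RPKM) than in both WT libraries (25.1% and 30.1%).

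Fxyd3, also known as Mat8, is a regulator of the pump found in epithelia. It lies on chromosome 7, positions 31068172 to 31076704, and was the most abundant FXYD gene of these cells. Fxyd3 measured 32.3 and 31.4 RPKM in WT replicates 1 and 2 and 28.4 and 31.9 RPKM in knockout replicates 1 and 2, so the groups overlapped. Its mean was 31.8 ± 0.700 RPKM in WT and 30.2 ± 2.48 RPKM in knockout libraries (SD, n = 2 each). The log2 fold change was -0.06 (SE 0.11, edgeR adjusted p 0.851), with a 95% interval from -0.32 to 0.20. It changed sign without knockout replicate 1 (0.04, edgeR adjusted p 0.918). In Fxyd3, 76.2% of exon reads were uniquely placed, and 73.3% crossed an exon-exon junction, against 16.9% for Atp1b1 and 16.5% for Atp1b3. The gene overlaps Lgi4 on the opposite strand by 2764 bases, but Lgi4 had at most 4 reads in a library.

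Fxyd5 encodes dysadherin, a glycosylated FXYD protein known to weaken adhesion through E-cadherin. It shares with Fxyd3 a run of 4 FXYD genes on chromosome 7, in the order Fxyd5, Fxyd7, Fxyd1 and Fxyd3, all on the minus strand. The run spans 43983 bases, from 31032722 to 31076704. Fxyd5 measured 2.13 and 3.57 RPKM in WT replicates 1 and 2 and 2.62 and 1.83 RPKM in knockout replicates 1 and 2, on 136, 301, 240 and 133 reads. The libraries of the groups interleaved, and WT replicate 2 stood highest. The log2 fold change was -0.35 (SE 0.27, edgeR adjusted p 0.619), with a 95% interval from -0.99 to 0.30. Without WT replicate 2 it was 0.07 (edgeR adjusted p 0.931), without WT replicate 1 it was -0.65 (adjusted p 0.280), without knockout replicate 1 -0.61 (adjusted p 0.507) and without knockout replicate 2 -0.13 (adjusted p 0.969). The other genes of the run were silent or nearly so, with 0 reads of Fxyd1 in every library and a single read of Fxyd7 in WT replicate 1.

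With Atp1b1 set aside, 0 of the 3 other members with reads (Atp1b3, Fxyd3 and Fxyd5) passed an edgeR adjusted p of 0.05, as did 0 with DESeq2 and limma, beside 1.27% of all 12614 genes in the edgeR fit and 0.325% in the lower direction alone. At an unadjusted p under 0.05 there was 1 of the 3, Atp1b3, beside 14.6% of all genes. Atp1b3 was also the only one of the 3 whose groups did not overlap, lower in the knockout as were 24.5% of all genes tested. The members were proposed from the same contrast, so nothing is read from these counts. Acta2, Tagln, Myh11 and Cnn1, markers of smooth muscle, were higher in the knockout libraries. The list of 5 markers summed to 184 and 151 RPKM in the WT libraries and 518 and 819 RPKM in the knockout libraries. Of this, Acta2 alone made up 449.9 and 723 RPKM in the knockout libraries. Myh11 reached only 0.120 and 0.294 RPKM there, and Des was at 0 or 1 reads. The 6 melanocyte markers summed to 7.51 and 7.14 RPKM in the WT libraries and 2.05 and 2.94 RPKM in the knockout libraries. Tyrp1 alone of them passed the edgeR threshold, and none was at 0. The 4 suprabasal KC markers (Krt1, Krt10, Ivl and Lor) summed to 5.31 and 4.69 RPKM in WT, below the 6.86 and 9.39 RPKM of the knockout libraries, and 0 of them passed the edgeR threshold (2 at an unadjusted p under 0.05). Of the 6 basal KC markers 0 passed the edgeR threshold, with log2 fold changes of -0.42 for Itga6, -0.12 for Krt14, -0.05 for Itgb4, -0.04 for Trp63 and Col17a1 and 0.16 for Krt5. The part of these markers, or of any cells that carry them, in the difference of Atp1b1 was not tested. In these bulk libraries, fewer cells that hold a transcript and less of it per cell cannot be told apart.

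On the RPKM scale Atp1b3 stood above Fxyd3 in every library. RPKM divides by the listed exon length of a gene, 1994 bases for Atp1b3, 2740 for Atp1b1, 3007 for Fxyd3 and 3807 for Fxyd5. Where that exceeds the length of the transcript present, the level is understated, so the order of the genes holds on this scale only. In WT, Fxyd3 and Atp1b1 were close (32.3 and 31.4 against 27.1 and 30.2 RPKM), differing by little more than the spread between replicates, while in knockout libraries Fxyd3 was well above Atp1b1. Next came Fxyd6, a FXYD gene known from the nervous system, at 8.76 and 6.73 RPKM (WT) and 3.75 and 6.46 RPKM (knockout), and then Fxyd5. By reads, Fxyd5 (301 and 240) stood above Fxyd6 (269 and 165) in WT replicate 2 and knockout replicate 1. Fxyd2, the regulator of the kidney pump, was at 0.613 and 0.813 RPKM in the WT libraries and 0.353 and 0.285 RPKM in the knockout libraries. Fxyd4 had between 3 and 9 reads in a library.

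**Figure D3:**
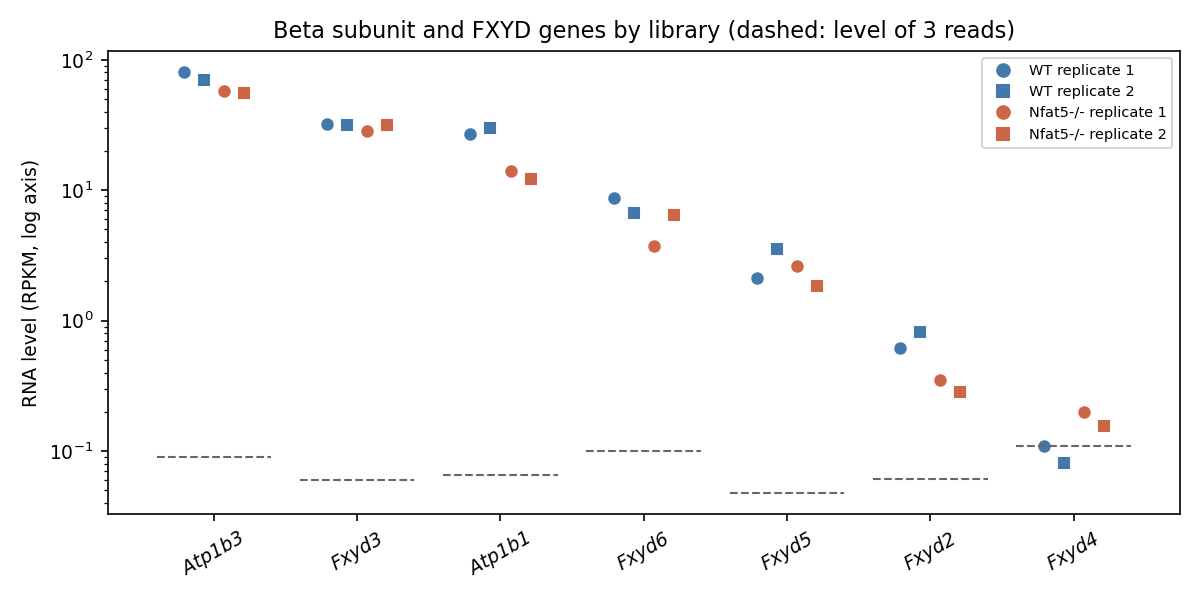
RNA level (RPKM, log axis) of the beta subunit and FXYD genes with at least 3 reads in every library, 1 point per library, ordered by mean level. Dashed lines mark the level of 3 reads in WT replicate 1, the shallowest library. Atp1b3 is highest (55.3 to 80.9 RPKM), and Fxyd4 lies at the dashed line or near it.

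Of the 10 other genes of the family, 3 could be tested, Fxyd2 and Fxyd6 among them, and 0 passed the edgeR threshold, with 1 at an unadjusted p under 0.05 (14.6% of all genes tested). Their median log2 fold change was -0.57, beside -0.010 over all genes tested. Fxyd2 gave -1.14 on the log2 scale (SE 0.33, edgeR adjusted p 0.180) on 32, 53, 25 and 17 reads. Fxyd6 gave -0.57 (SE 0.28, edgeR adjusted p 0.405). Both passed when genes were tested without a filter on low counts, as did 1137 of all 18043 genes in that fit. DESeq2 and limma made 0 calls in this list and in the 3 that follow. The limma fits took only genes with a group mean of at least 1 RPKM, so they did not test Fxyd2, nor Scnn1a and Slc8a1 of the later lists.

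Of 13 genes for sodium entry and pump regulation, 10 were tested and 0 passed in either direction, where 0.943% of all genes tested passed as higher. There were 3 of the 10 at an unadjusted p under 0.05, beside 14.6% of all genes tested, and the median log2 fold change was 0.041. Sgk1, a kinase that raises sodium transport, was at 78.4 and 81.9 RPKM in the WT libraries and 69.6 and 69.8 RPKM in the knockout libraries (edgeR adjusted p 0.444). Nkain1, for a protein that binds the beta 1 subunit, was level at 22.1 ± 4.77 and 22.2 ± 2.02 RPKM (SD, n = 2 each, edgeR adjusted p 0.966). Sik1, a salt-inducible kinase that acts on the pump, was at 25.1 and 16.9 RPKM in the WT libraries and 26.2 and 32.6 RPKM in the knockout libraries, which gave 0.51 on the log2 scale (SE 0.20, edgeR adjusted p 0.311). Nedd4l, the ubiquitin ligase that removes the sodium channel ENaC from the membrane, gave 0.28 (SE 0.11, edgeR adjusted p 0.313). Add1, which encodes an adducin, gave 0.06 (edgeR adjusted p 0.830). Scnn1a, for the alpha chain of ENaC, had few reads, 31 and 13 in WT and 77 in each knockout library, which gave 1.62 on the log2 scale (SE 0.49, edgeR adjusted p 0.192). Scnn1a and Sik1 were higher in both knockout libraries than in both WT libraries, as were 23.3% of all genes tested.

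Of 8 related ion pumps and exchangers, 5 were tested and 0 passed the edgeR threshold, with 1 of the 5 at an unadjusted p under 0.05 (14.6% of all genes tested) and a median log2 fold change of 0.0067. Atp2a2 and Atp2c1, the calcium pumps of the endoplasmic reticulum and the Golgi that are mutated in the skin diseases of Darier and of Hailey and Hailey, had log2 fold changes of -0.24 and -0.05. The plasma membrane calcium pump Atp2b1 was at 10.8 ± 0.216 and 10.7 ± 0.302 RPKM in WT and knockout libraries (SD, n = 2 each), and Atp2b4 had a log2 fold change of 0.30. The sodium-calcium exchanger Slc8a1 rested on 3, 7, 28 and 12 reads (edgeR adjusted p 0.201), and Atp12a, a proton pump, on at most 4 reads.

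Of the 6 adhesion partners of beta subunits and of Fxyd5, all were tested and 0 passed the edgeR threshold, with 1 at an unadjusted p under 0.05 (14.6% of all genes tested). The fitted log2 fold change was above 0 in each of the 6, as in 48% of all genes tested, but the libraries of Ocln and Ctnna1 overlapped between the groups. In 4 of the 6 the groups did not overlap, beside 23.3% of all genes tested with higher knockout values. The median log2 fold change was 0.23. Cdh1 (E-cadherin) measured 243 and 211 RPKM in the WT libraries and 252 and 292 RPKM in the knockout libraries, which gave 0.28 on the log2 scale (SE 0.13, edgeR adjusted p 0.365). Tjp1, of the tight junction plaque, had the smallest p of the list, at 0.38 on the log2 scale (SE 0.10, edgeR adjusted p 0.161). The catenins Ctnna1, Ctnnb1 and Ctnnd1 and occludin (Ocln) had values from 0.08 to 0.24. Of the exon reads of Ctnnd1 and Ctnnb1, 14.9% and 44.5% were unique.

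**Figure D4:**
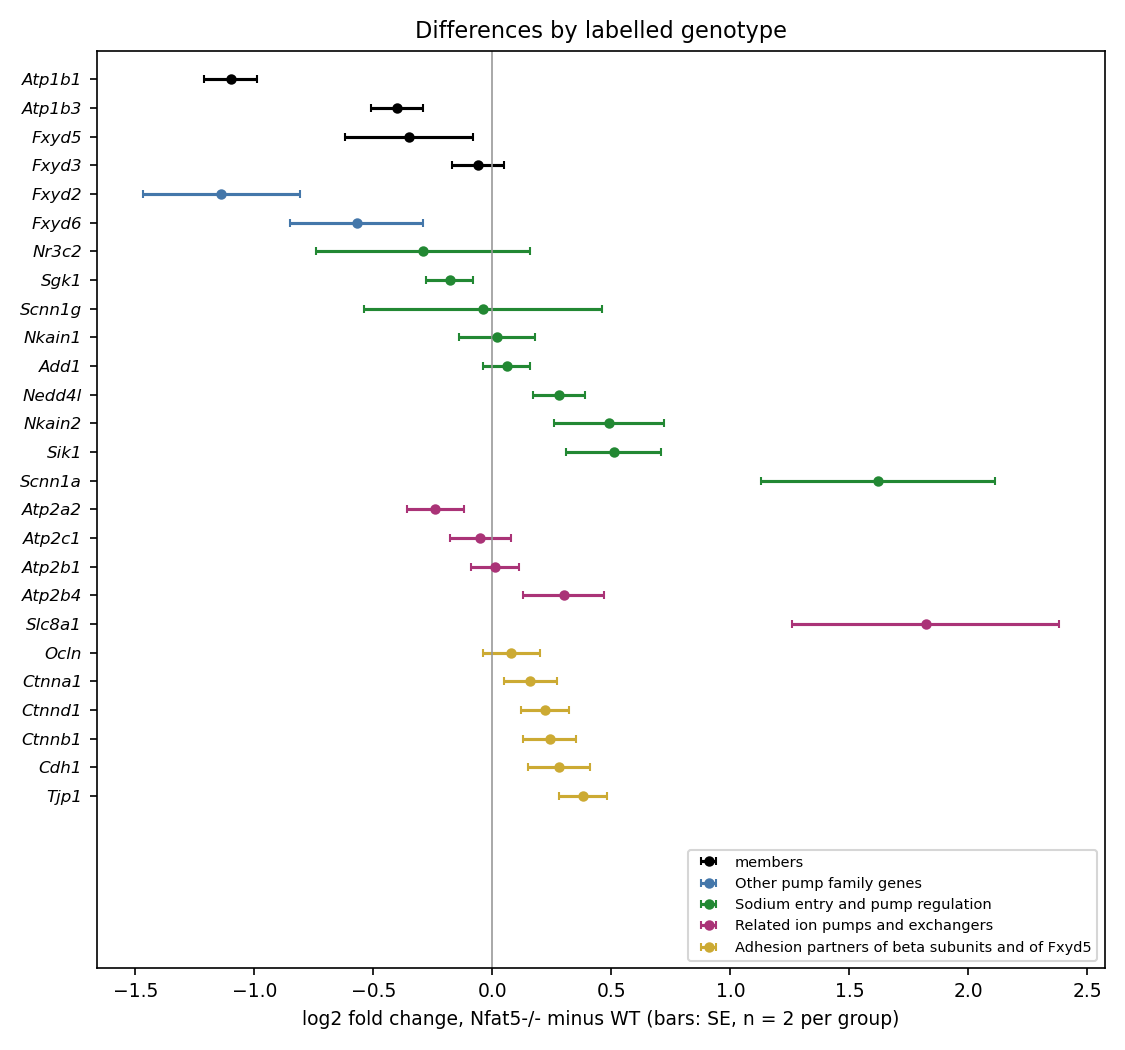
Log2 fold change (Nfat5-/- minus WT) with its SE from the edgeR fit of all genes (n = 2 libraries per group), for the 4 members with reads in black and tested genes of the 4 lists in colour. Atp1b1 lies at -1.10, and the 6 adhesion genes lie between 0.08 and 0.38.

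The genes with the values most like those of Atp1b1 were sought among the 4829 other tested genes with a mean of at least 10 RPKM. Likeness was the root mean square difference of log2(CPM + 0.5), centred on the mean of each gene, over the 4 libraries. Bcl2l15 (0.0995) came first, but only 5.17% of its exon reads were unique. Lamb3, a chain of an epidermal laminin, followed at 0.102, with 397 and 429 RPKM in the WT libraries and 190.2 and 204 RPKM in the knockout libraries. Itga2, an integrin subunit, came next at 0.144, then Nt5dc2 at 0.147 and P2rx2, an ATP-gated ion channel, at 0.168. Their log2 fold changes lay between -1.25 (P2rx2) and -0.93 (Itga2). Of the other members, Atp1b3 ranked 140 (0.372) and Fxyd3 1891 (0.531). The likeness rests on 4 libraries, describes these libraries alone and carries no test.

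**Figure D5:**
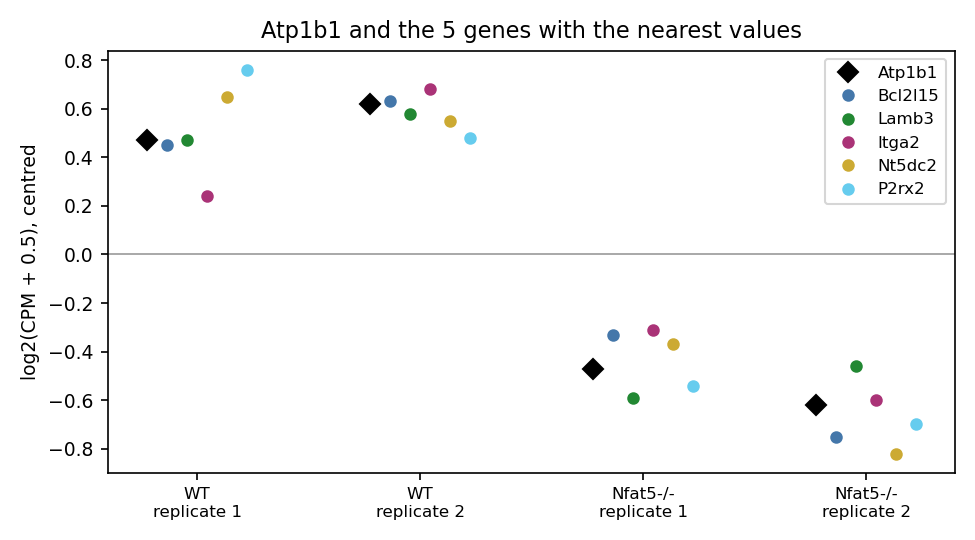
Level of Atp1b1 and of its 5 nearest genes in each library, as log2(CPM + 0.5) centred on the mean of each gene. In every gene both WT points lie above 0 and both knockout points below it, with Atp1b1 at 0.47 and 0.62 in WT and -0.47 and -0.62 in knockout libraries.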

How the data were processed

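Poly(A) RNA of cultured tail KCs was sequenced as 4 libraries. The authors trimmed and aligned the reads to GRCm38 with the CLC Genomics Workbench and deposited raw read counts per gene, exon, junction and intron, and RPKM values, written with decimal commas. Group and replicate number came from the sample titles. Reads that map to several sites are part of the total counts, so genes with near copies carry uncertain values.

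Total gene reads were filtered with filterByExpr, scaled with TMM factors (0.980 to 1.01) and fitted over all 12614 genes with edgeR 4.0.16 (R 4.3.3), quasi-likelihood, genotype as the only term, with Benjamini-Hochberg adjustment over all genes and a threshold of 0.05. The SE is the log2 fold change divided by the square root of F. Replicates differed beyond sampling noise (chi-square per degree of freedom 16.7 and 17.3). The procedure was also run on counts simulated from the model that edgeR fitted to these libraries, which cannot test whether that model holds here. The members and lists were chosen with earlier results of these data known. Genes named are the members, list genes past the threshold, the 6 most abundant of each list, and the 5 genes most like Atp1b1. Some genes of the lists are not reported here by name. Scnn1a and the read counts of other genes outside that rule were named after their values were seen. Alternatives used other scaling, filters, DESeq2 1.42.0, limma 3.58.1 on log2(RPKM + 1) and log2(RPKM + 0.1) for genes with a group mean of at least 1 RPKM, reads in exons, those placed at a single site, a replicate block and each library left out.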

Additional observations from a re-analysis of the deposited data

How the results depend on the processing

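The log2 fold change of Atp1b1 lay between -1.17 and -1.02 over 14 alternatives. Atp1b3 ranged from -0.50 to -0.28 and passed the threshold only without a filter on low counts (-0.39, adjusted p 0.0328). Fxyd3 ranged from -0.16 to 0.04 and Fxyd5 from -0.65 to 0.07 with 1 library left out, changing sign without knockout replicate 1 and without WT replicate 2. On uniquely placed exon reads the mean Atp1b1 share of beta subunit RNA was 24.5% in WT and 16.9% in knockout libraries, against 27.6% and 18.9%. Over all genes, 160 passed (119 higher, 41 lower), against 1137 without a filter (723 higher, 414 lower) and 427 with DESeq2, and between 16 and 478 with 1 library left out: 268 without WT replicate 1, 478 without WT replicate 2, 31 without knockout replicate 1 and 16 without knockout replicate 2. The cause was not tested. Without a filter, 1137 of 18043 tested genes passed. The lists then held 2 calls of 8 tested in the pump family (Fxyd2, Fxyd6). There were 2 of 12 in sodium entry and regulation (Scnn1a, Sik1), 1 of 7 among related pumps (Slc8a1) and 1 of 6 among adhesion partners (Tjp1). With 1 library left out the sodium list held between 0 and 2. DESeq2 and limma made 0 calls in the 4 lists, of which limma tested 2, 6, 4 and 6 genes. Between scalings the median of all tested genes on the log2 fold scale lay between -0.030 and -0.0050.

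The labels do not state whether the replicate numbers pair the libraries. The deviations of same-numbered libraries from their group means correlated at -0.0872 over genes. With 2 libraries per group this value cannot show whether they were paired. With the replicate block, Atp1b1 was at -1.10, Atp1b3 at -0.39 (adjusted p 0.202), and 132 genes passed.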

Other observations

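Some genes of the lists carried reads that were not in exons. Nkain2, for a pump-interacting protein, had 74 and 84 gene reads in WT and 156 and 93 in knockout libraries with an RPKM listed at 0 in each, so all of these reads lay in its introns. Of the reads of Nr3c2, the mineralocorticoid receptor, 79.4% were intronic, and of those of Nkain3, 96.6%. The ENaC chain Scnn1b had 2 and 0 reads in WT and 11 and 4 in knockout libraries, of which 29.4% of the exon reads were unique, and Scnn1g had 9, 14, 18 and 7.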
